A study of Mus musculus with 8 samples.

Results

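The circular RNAs (circRNAs) described here span 1 to 10 kb of the mouse genome. They are the non-control probes of the array whose name is a chromosome, a start, an end and a strand, with end minus start of at least 1000 bases and under 10 kb, and 14639 of the 37852 circRNAs on the array met that rule. Their median span was 4644 bases. They were measured in spinal cord total RNA of female mice aged 8 weeks, on Agilent 1-colour arrays that also carry mRNAs and lncRNAs, in 4 control and 4 contusion samples with 1 array each. Per the design text the tissue was the segments T9 to T10 around the injury, from 8 mice. In a contusion injury the cord is bruised by a blow rather than cut. No strain, genotype or transgene is given in the sources used here. By their titles all 4 contusion samples were taken at 3 days, but other labels put contusion replicates 2, 3 and 4 at 4, 5 and 6 days. The controls are called normal cord in their descriptions and sham-operated in the design text. The question was which of these circRNAs differ in level between contused and control cord.

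A circRNA forms when the splicing machinery joins the end of an exon (the donor) backwards to the start of an exon upstream (the acceptor), which closes the stretch between them into a ring. The ring has no free ends, so the exonucleases that degrade linear RNA from its ends do not attack it, and circRNAs are known to be long-lived and abundant in neural tissue. Because the exons of a ring also occur in the linear mRNA of the same gene, called the host here, the back-splice junction is the stretch of sequence that sets the ring apart. The span is the genomic distance from acceptor to donor with the introns included, so it is not the length of the RNA itself.

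Each circRNA has a probe of 60 bases in the deposited files, printed below 5′ to 3′ in the orientation of the RNA. Where 2 circRNAs of the same acceptor end are on the array, the stretch their probes share marks the acceptor side of the junction. It is in capitals for the Knl1 pair, at chr2:119076936-119081625 and chr2:119076936-119078351 on the plus strand, for Oprm1 at chr10:6828885-6830497 and for Cit at chr5:115859198-115863059. The Top2a pair at chr11:99003507-99012159 and chr11:99003507-99006151 on the minus strand shares a donor end, and there the shared donor bases are in capitals. No source used here names the build of the circRNA positions. They fit GRCm38, since 98.9% of the circRNAs of 1 to 10 kb lay inside a RefSeq gene of that build, against 48.8% after a shift of 1e+06 bases.
Knl1, 4689 bases: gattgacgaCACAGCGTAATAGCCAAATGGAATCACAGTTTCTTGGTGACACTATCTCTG
Knl1, 1415 bases: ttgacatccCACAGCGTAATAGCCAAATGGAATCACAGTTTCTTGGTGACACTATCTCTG
Top2a, 8652 bases: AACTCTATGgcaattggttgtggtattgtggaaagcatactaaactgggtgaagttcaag
Top2a, 2644 bases: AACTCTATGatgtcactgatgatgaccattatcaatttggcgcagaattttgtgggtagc
Oprm1, 1612 bases: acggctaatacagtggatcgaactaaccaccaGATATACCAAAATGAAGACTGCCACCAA
Cit, 3861 bases: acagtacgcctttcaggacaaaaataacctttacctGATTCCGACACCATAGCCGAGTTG

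These probes show how unevenly the junction can sit in a probe. The shared stretch was 51 bases in the Knl1 pair and 9 bases in the Top2a pair. The junction could be placed this way in 6176 circRNAs of 1 to 10 kb (42.2%), with a median of 10 bases on the donor side. Placement needed a shared stretch of at least 16 bases, so donor sides of over 44 bases could not be placed and are missing from these figures. In 3200 of those 6176 (51.8%) the donor side held at most 10 of the 60 bases, so that most of the probe lies in the acceptor exon. In 1834 (29.7%) it held 20 to 40 bases. The part that linear host RNA has in the signal of such probes was not tested. The probes of 231 circRNAs of 1 to 10 kb (1.58%) shared a stretch of 30 bases with an mRNA probe of the array.

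Of the 14639 circRNAs, 13883 were tested, namely those well above background on 4 or more arrays of either group. On each array 94.2% to 94.9% of the circRNAs of 1 to 10 kb were well above background, no spot was saturated, and the number of arrays limits the precision. A level below is a log2 processed intensity from which the 75th percentile of all non-control probes of that array was subtracted, so that 0 is that percentile. A difference is contusion minus control on the log2 scale ± limma's standard error (SE), with n = 4 arrays a group, and called means a Benjamini-Hochberg adjusted p under 0.05 over all 89088 features tested. Slide 1 held contusion replicate 1 with control replicates 2, 3 and 4, and slide 2 held control replicate 1 with the other 3 contusion arrays. The labelled tissue fits its defining markers: the mean level of 9 neuron markers was 4.72 to 5.79, of 6 oligodendrocyte markers 7.84 to 8.27 and of 6 astrocyte markers 6.02 to 6.31 over the 8 arrays. In bulk tissue, fewer cells of a type and less RNA per cell cannot be told apart.

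In contused cord 2724 circRNAs of 1 to 10 kb rose and 2929 fell, out of 13883 tested. The called share was 40.7%, with 19.6% higher and 21.1% lower. The same shares were 42.7%, 14.1% and 28.6% over the 21732 tested circRNAs of other spans, and 38.6%, 14.7% and 23.9% over all features of the array. Large fitted changes were mostly increases: 515 circRNAs of 1 to 10 kb were called and at least 2-fold higher (3.71%) and 46 at least 2-fold lower (0.331%), against 2.01% and 0.764% of the other spans and 3.36% and 1.47% of all features. Some of these fitted sizes rest on control or contusion values below background. The 2-fold counts were not recomputed with another filter on dim probes or another background correction. Scaling each array to the 75th percentile of its circRNA probes alone moved the split to 3407 higher and 2278 lower. With the slide as a block 2216 were called higher and 2537 lower. Normexp is a model-based background correction from the mean spot and local background signal, run here with 50 intensity units added to every spot. After normexp the counts were 2278 and 2485. The 75th percentile of processed intensity was 203 to 251 on the arrays, so the added 50 by itself shrinks log2 differences of dim probes. The parts of the correction and of the added 50 were not told apart. For circRNAs named by rule, the value after normexp is given where a called difference, also from the host mRNA, was over 1.5 times smaller. This does not cover the circRNAs at the limits of the span. The groups did not overlap for 5955 circRNAs of 1 to 10 kb (42.9%), against 44.2% of the other spans and 38.7% of all features.

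The balance of increases and decreases shifted with span. Increases made up 45.5% of the calls among circRNAs under 1 kb, 48.2% at 1 to 10 kb, 34.5% at 10 to 50 kb and 19.7% at 50 kb or more. Within the span of 1 to 10 kb, increases made up 53.1% of the calls from 1 to 2 kb and 45.9% from 2 to 3 kb. They made up 49.1% from 3 to 5 kb and 46.5% from 5 to 10 kb. The called share, increases and decreases together, was 41.4% from 1 to 2 kb, 40.8% from 2 to 3 kb, 41.8% from 3 to 5 kb and 39.9% from 5 to 10 kb, so it hardly moved. It was 36.1% for probes under 40% GC, 41.9% from 40% to under 50% GC and 40.2% above that. The median level of circRNAs of 1 to 10 kb lay above that of the other circRNAs by 0.151 to 0.167 on the control arrays and by 0.243 to 0.275 on the contusion arrays, and these ranges do not overlap. This difference between spans was not tested.

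The hosts differed between spans too. Genes of the list of neuron and synapse hosts carried 1.29% of the circRNAs of 1 to 10 kb that have a host, against 3.27% under 1 kb, 2.54% at 10 to 50 kb and 9.54% at 50 kb or more. The list holds 79 genes, so these shares describe a small part of the circRNAs of each span. For cell division hosts the shares were 0.809% under 1 kb, 1.06% at 1 to 10 kb, 0.533% at 10 to 50 kb and 0.439% at 50 kb or more. The part that hosts have in the shift with span was not tested. Spans were also compared inside the same host, a comparison chosen after seeing the data. In 816 hosts that carry both circRNAs of 1 to 10 kb and circRNAs of 50 kb or more, the host's median difference was -0.147 for the shorter and -0.129 for the longer ones (medians over hosts). The circRNAs of 1 to 10 kb had the higher median in 382 of those 816 hosts (46.8%). In 2775 hosts shared with the span of 10 to 50 kb, the median gap between the spans was -0.00387 on the log2 scale.

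**Figure D1:**
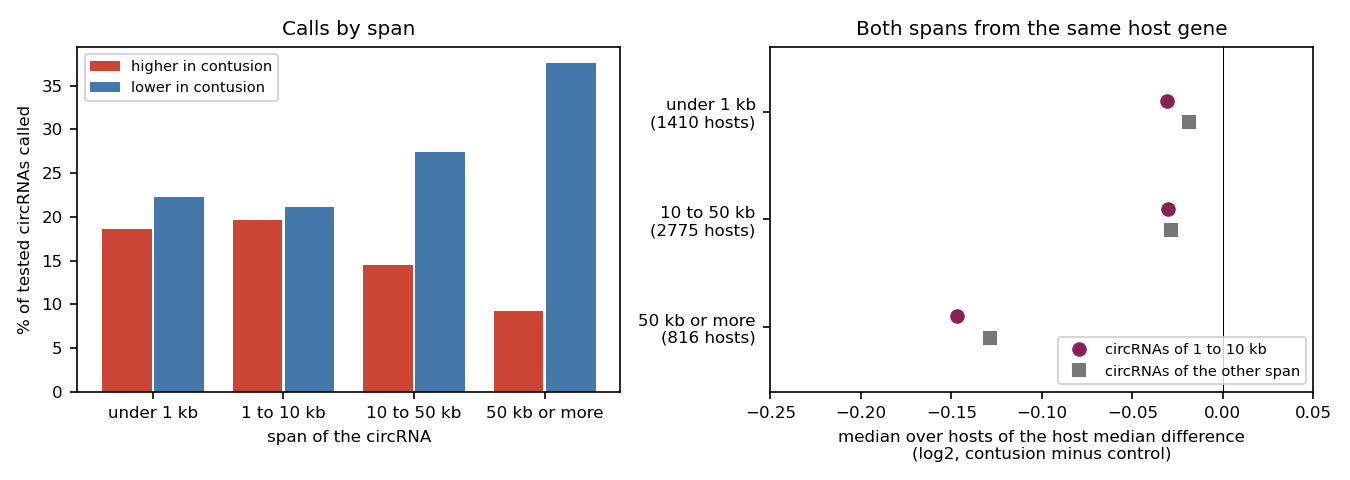
Left, bars give the percent of tested circRNAs of each span called higher or lower in contusion; the share called lower grows from 21.1% at 1 to 10 kb to 37.6% at 50 kb or more. Right, points give, for hosts that carry both spans, the median over hosts of the host's median log2 difference (contusion minus control); the points of each pair lie within 0.02 of each other.

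The largest fitted increase was that of a circRNA of Lgals3, and the other 9 of the first 10 came from Top2a, Pbk, Knl1, Spc25 and Tpx2. Lgals3 encodes galectin-3, a carbohydrate-binding protein of activated macrophages and microglia. Its circRNA of 4488 bases (chr14:47380221-47384709) had control levels of 2.06, 1.63, 1.68 and -0.73 and contusion levels of 5.90, 5.66, 5.50 and 5.62. Control replicate 4 stood below the other controls, and the groups were far apart. The difference was 4.51 ± 0.55 (adjusted p = 0.000504), or 22.8-fold, and 3.88 without control replicate 4. The probe of this circRNA, whose junction could not be placed, is printed here because it had the largest difference.
Lgals3, 4488 bases: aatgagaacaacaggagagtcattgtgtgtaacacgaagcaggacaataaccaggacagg

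Top2a encodes topoisomerase II alpha, which untangles DNA in dividing cells, and supplied 5 of the 10 largest fitted increases. The Top2a circRNA of 8652 bases was at -2.54, -4.42, -3.34 and -5.58 in the controls and at 0.28, -0.17, 0.51 and 0.60 after contusion. The lowest contusion value lay above the highest control value, although the controls spread over 3 log2 units. The circRNA rose by 4.28 ± 0.58 (adjusted p = 0.000816) and was well above background on 3 of the 4 control arrays. The 2644-base circRNA with the same donor end rose by 4.25 ± 0.79 (adjusted p = 0.00354) and by 4.99 without control replicate 1. It was well above background on 2 of the 4 control arrays, so these sizes rest in part on control values below background. The Top2a circRNA of 1171 bases (chr11:98994207-98995378) was well above background on no control array and on all 4 contusion arrays. That gives a bound of at least 4.47-fold higher, taken as the contusion mean over the lowest well-measured signal of each control array, so its place among the 10 rests on control values below background. The other Top2a circRNAs among the 10, of 1833 and 5583 bases, rose by 4.17 ± 0.55 and 3.91 ± 0.50. After normexp the increases were 2.28 (8652 bases), 1.65 (2644 bases), 2.64 (1833 bases) and 0.52 (1171 bases), each still called.

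The remaining increases among the first 10 were from mitotic genes as well. Pbk encodes a protein kinase active in mitosis, and its circRNA of 4761 bases rose by 4.15 ± 0.71 (adjusted p = 0.0024). Its control levels were -2.60, -3.87, -3.94 and -6.41 and its contusion levels 0.09, -0.79, 0.32 and 0.18. The groups did not overlap, and without control replicate 4 the difference was 3.42. Knl1 encodes a kinetochore scaffold, and its circRNA of 4689 bases rose by 3.94 ± 0.60, with 2 of 4 control arrays well above background. Spc25, a subunit of the kinetochore's Ndc80 complex, had a circRNA of 2606 bases that rose by 3.89 ± 0.40. The Pbk and Spc25 circRNAs were each well above background on 3 of 4 control arrays. The 9508-base circRNA of Tpx2, a spindle assembly factor, was well above background on no control array and was at least 10.6-fold higher in contusion, so that its place among the 10 has the same limit. After normexp the increases were 1.97 for Pbk, 0.90 for Knl1, 1.56 for Spc25 and 0.89 for Tpx2, each still called.

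The fitted decreases were smaller. Tekt5 encodes a tektin, a filament protein of cilia and flagella. The Tekt5 circRNA of 4036 bases (chr16:10378897-10382933) was at -0.03, -0.10, -0.12 and 0.09 in the controls and at -1.48, -1.30, -1.47 and -1.57 after contusion. Within each group the levels lay close together. The circRNA fell by 1.42 on the log2 scale (SE 0.08, adjusted p = 8.2e-05), which is 2.67-fold. Bcan encodes brevican, a proteoglycan of the neural matrix around synapses. Its circRNA of 7552 bases went from 2.52, 2.56, 2.26 and 2.89 to 1.34, 1.14, 1.24 and 1.27, with no overlap, and fell by 1.31 (SE 0.13, adjusted p = 0.000216). Dnm1 encodes the dynamin that pinches off synaptic vesicles, and its circRNA of 1891 bases also fell by 1.31 (SE 0.12).

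Oprm1 encodes the mu opioid receptor. Its circRNA of 1612 bases had control levels from -1.98 to -1.81 and contusion levels of -2.89, -3.08, -3.48 and -3.06, and fell by 1.25 (SE 0.12, adjusted p = 0.000219). The opioid receptor circRNA was thus lower on every contusion array than on any control array. Dab1, an adaptor protein of reelin signalling in neurons, had 2 circRNAs among the 10 largest decreases, of 1483 and 3263 bases, which fell by 1.23 (SE 0.16) and 1.22 (SE 0.17). The circRNA of 9731 bases from Myo5b, a myosin motor of recycling endosomes, fell by 1.25 (SE 0.18), with 1 of 4 contusion arrays well above background. The circRNA of 3497 bases inside ccdc198 lies on the strand opposite to that gene and had 1 of 4 contusion arrays well above background. Its difference was -1.31 ± 0.26. The Sh3rf3 circRNA of 5223 bases was well above background on no contusion array and was at least 1.34-fold lower. The decrease of the Tsga10 circRNA of 6398 bases, -1.32 ± 0.39 (adjusted p = 0.0279), was no longer called without control replicate 2 (-1.35, adjusted p = 0.0561), control replicate 4 (-1.07, adjusted p = 0.068) or contusion replicate 4 (-1.37, adjusted p = 0.0514). After normexp the calls of Sh3rf3 (-0.08, adjusted p = 0.479), Myo5b (-0.14, adjusted p = 0.139) and ccdc198 (-0.15, adjusted p = 0.0706) were lost. That correction also left smaller but called decreases for Tsga10 (-0.27), Oprm1 (-0.52) and the Dab1 circRNAs of 1483 bases (-0.30) and 3263 bases (-0.24).

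**Figure D2:**
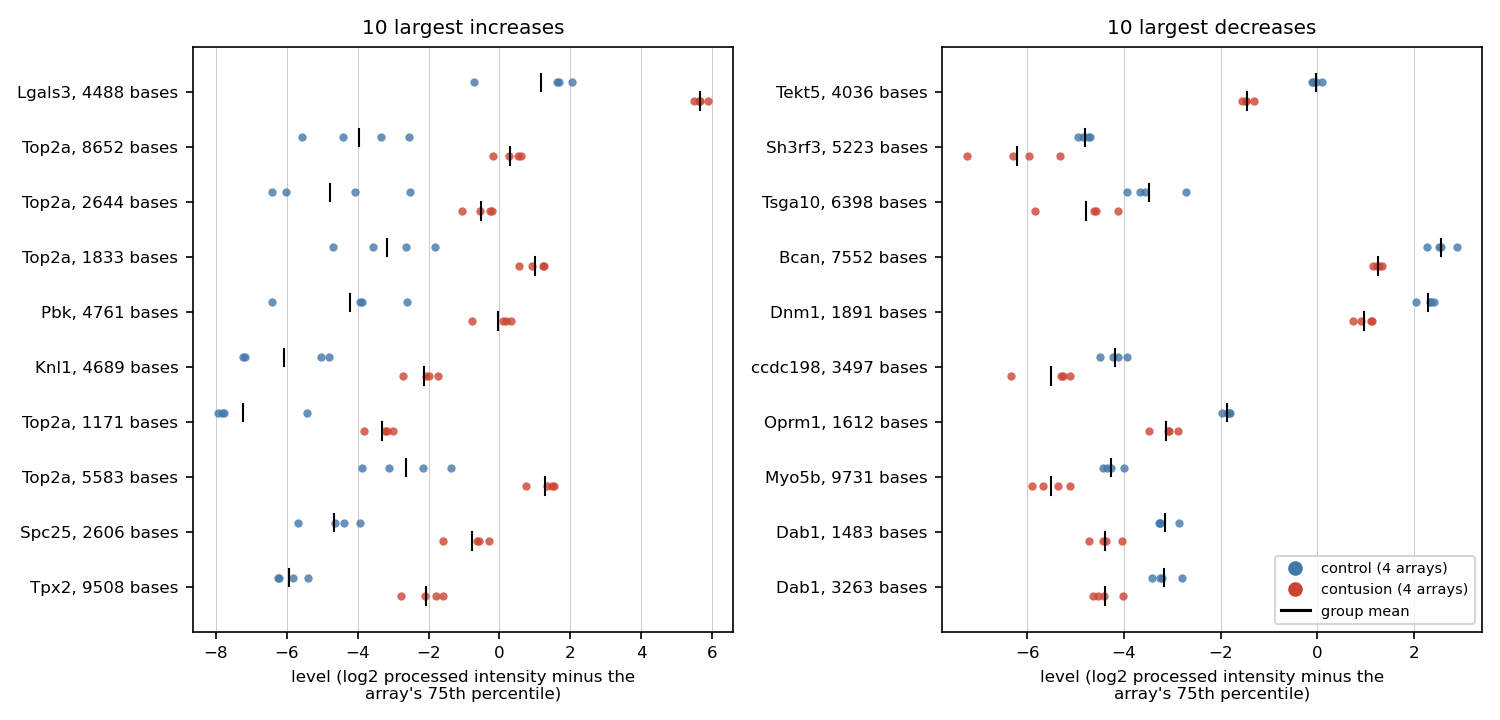
Levels (log2 intensity relative to the 75th percentile of the array) of the 10 largest increases and the 10 largest decreases among called circRNAs of 1 to 10 kb whose groups do not overlap; points are arrays (4 a group) and black bars are group means. The controls of the Top2a, Pbk and Knl1 circRNAs spread over 2 log2 units or more, while the contusion arrays of the same circRNAs lie close together.

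Cdr1as, the best known circRNA of the brain, carries many sites for the microRNA miR-7 and is known as its sponge and carrier in neurons. Its ring spans 2926 bases at chrX:61183248-61186174 on the plus strand. The probe is shown with every match to the complement of the miR-7 seed in capitals, and the mature miRNA (RefSeq) with its seed, bases 2 to 8, in capitals.
mmu-miR-7a-5p: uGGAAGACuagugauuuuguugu
Cdr1as, 2926 bases: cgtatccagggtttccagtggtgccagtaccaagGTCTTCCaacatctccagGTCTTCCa
The 60 bases held the motif GTCTTCC 2 times. Counted on both strands, 1.52% of the probes of circRNAs of 1 to 10 kb and 1.47% of the probes of other spans held this motif at least once, and Cdr1as had the 1 probe of a circRNA of 1 to 10 kb that held it at least 2 times on the strand of the RNA.

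Cdr1as was at 7.34, 7.85, 7.51 and 7.57 in the controls and at 6.92, 6.83, 6.75 and 6.55 after contusion. Every contusion level lay below every control level. Cdr1as fell by 0.80 (SE 0.12, adjusted p = 0.00145), or 1.75-fold, and the difference was -0.72 within slide 1 and -0.63 within slide 2. The 7 shorter circRNAs that the array places inside the same locus, all under 1 kb and each with the motif 3 times in its probe, also fell, by between -0.68 and -0.45. These 7 span 105 to 145 bases, and each shares a start or an end with another, so they are not separate measurements. They lie inside the full ring, and its part in their signal was not tested. The mRNA of Cdr1, the gene on the other strand, differed by -0.21 ± 0.09 (adjusted p = 0.0839) and was not called.

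Other genes known for their circRNAs did not move as a block. Of 99 tested circRNAs of 1 to 10 kb from 26 such hosts, 7 rose, 31 fell and 61 were not called, with a median of -0.10, against -0.00445 over all circRNAs of 1 to 10 kb. Of all circRNAs of 1 to 10 kb 40.7% were called, 19.6% higher and 21.1% lower, and of all features 38.6%. The total called in the list was near these total shares. In the list, the count of increases was 3 with the slide as a block and without control replicate 2 or contusion replicate 3. It was 4 after normexp, with no filter on dim probes and without control replicate 3, control replicate 4 or contusion replicate 4, and 12 with the percentile taken over circRNA probes. The median was -0.06 after normexp. Some of these hosts are counted again in lists below, so the counts of the lists are not separate. Among them are Rims1, Rims2, Dlgap1 and Homer1 (neuron and synapse hosts) and Pde4b and Rtn4 (myelin and oligodendrocyte hosts). The single-exon circRNA of Slc8a1, a sodium-calcium exchanger, spans 1829 bases and was at 0.16, 0.43, 0.10 and 0.29 in the controls and at -0.36, -0.35, -0.34 and -0.40 after contusion. It fell by 0.61 (SE 0.08, adjusted p = 0.000747), with no overlap. The circRNA of 1098 bases from Hipk3, a nuclear kinase, went from 0.61, 0.63, 0.73 and 0.76 to 0.52, 0.33, 0.37 and 0.35 and fell by 0.29 (SE 0.07, adjusted p = 0.0125). That is a 1.22-fold decrease with groups that just miss each other. Of 4 tested Hipk3 circRNAs 2 were called lower, and those of 1889 and 5390 bases differed by 0.007 and 0.014.

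Rims1 and Fat3 were among the hosts of this list whose tested circRNAs were all called lower. The 5846-base circRNA of Rims1, a scaffold of the presynaptic release site, fell by 0.92 (SE 0.08, adjusted p = 0.000184), and each of the 5 tested Rims1 circRNAs was called lower. Fat3, an atypical cadherin of neurons, had 4 of 4 circRNAs called lower, and its 2128-base circRNA fell by 1.06 (SE 0.08), or by 0.36 after normexp. The Foxo3 circRNA of 1435 bases, from a forkhead transcription factor, differed by 0.09 ± 0.12 (adjusted p = 0.591), and that sign turned with the slide as a block (-0.05). The Hipk2 circRNA of 8886 bases differed by -0.16 ± 0.06 (adjusted p = 0.0836). Of 8 tested Tulp4 circRNAs 1 was called higher and 0 lower. The Tulp4 circRNA of 8385 bases rose by 0.20 ± 0.06 (adjusted p = 0.0372), a call that was lost when the slide was a block (0.20, adjusted p = 0.0807), after normexp (0.15, adjusted p = 0.139), with no filter on dim probes (adjusted p = 0.0648) and on leaving out control replicate 1, 2 or 3 or contusion replicate 1, 3 or 4 (0.17 to 0.21).

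**Figure D3:**
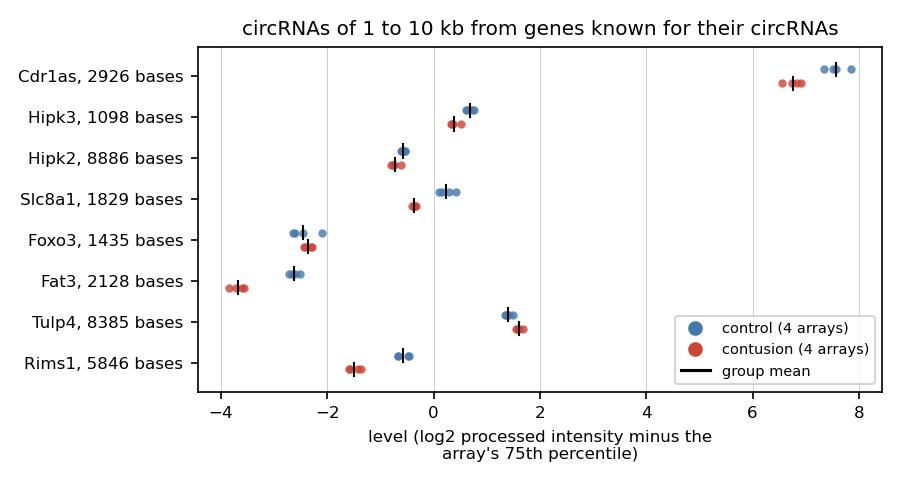
Levels (log2 intensity relative to the 75th percentile of the array) of 8 circRNAs of 1 to 10 kb from genes known for their circRNAs; points are arrays (4 a group) and black bars are group means. Cdr1as, Slc8a1, Fat3 and Rims1 show separate groups with contusion lower, while the groups of Foxo3 overlap.

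Grouped by the function of their host, the circRNAs of neuronal genes fell. Of 176 tested circRNAs from 58 neuron and synapse hosts, 134 were called lower and 2 higher, with a median of -0.49. Rbfox3, the splicing regulator known as the neuronal marker NeuN, had a circRNA of 1132 bases that went from 3.34, 3.46, 3.25 and 3.42 on the control arrays to 2.29, 2.26, 2.25 and 2.04 after contusion. The groups did not overlap, and it fell by 1.16 (SE 0.08, adjusted p = 0.000107). That of the sodium channel Scn8a (4021 bases) fell by 0.91 (SE 0.07). The 2 that rose were the circRNA of 4898 bases from the NMDA receptor subunit Grin2b, by 0.92 ± 0.19, and that of 8628 bases from Erc1, a protein of the presynaptic release site, by 0.61 ± 0.18. The Grin2b circRNA was dim, at -5.24, -5.72, -5.85 and -5.66 in the controls and at -5.07, -4.84, -4.30 and -4.59 after contusion. The lowest well-measured signal of the control arrays averaged -5.47. The count of 2 was 0 after normexp, and 1 with the slide as a block, with probes well above background on all 8 arrays, and without control replicate 1 or 2 or contusion replicate 3 or 4. The median of the list was -0.30 after normexp. The mRNAs of 9 of 9 neuron markers were called lower as well, with a summed level of 50.1 to 52.1 on control and 42.5 to 44.9 on contusion arrays, and the part of neuron content in these decreases was not tested.

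Circles of cholesterol synthesis genes were also lower. Of 25 tested, 20 were called lower and 0 higher, with a median of -0.48, and 11 of the 20 came from Srebf2, the transcription factor that switches the pathway on. The circRNA of 7996 bases from Fdft1, squalene synthase, went from 1.44, 1.57, 1.51 and 1.64 on the control arrays to 0.92, 0.96, 0.86 and 0.93 after contusion. Its groups did not overlap, and it fell by 0.62 (SE 0.07, adjusted p = 0.000282). Over all circRNAs of 1 to 10 kb, 21.1% were called lower and 19.6% higher. Of 48 circRNAs of myelin and oligodendrocyte hosts, 17 were called lower and 5 higher, with a median of -0.15. The 5 were 3 with the slide as a block and without control replicate 2 or contusion replicate 2, 3 or 4, and 8 with the percentile over circRNA probes. Among them the Rtn4 circRNA of 8410 bases, from the gene of the axon growth inhibitor Nogo, rose by 0.60 ± 0.08. The phosphodiesterase Pde4b had a circRNA of 6458 bases that fell by 0.56 (SE 0.07), or by 0.24 after normexp. The circRNAs of Nfasc, a protein of the node of Ranvier, went both ways. Those of 5315 and 5076 bases fell, by 0.53 (SE 0.09) and 0.49 (SE 0.08), and that of 2234 bases rose by 0.27 ± 0.07 (adjusted p = 0.0221). The other Nfasc circRNAs, of 5486 and 1787 bases, differed by 0.16 ± 0.06 (adjusted p = 0.0742) and 0.35 ± 0.14 (adjusted p = 0.0789).

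Circles of cell division hosts were mostly higher. Of 144 tested circRNAs from 55 hosts, 104 were called higher and 2 lower, with a median of 1.46, and 44 of the 55 hosts had at least 1 called higher. After normexp 102 were called higher and the median was 0.47, below the 0.52 of phagocyte and microglia hosts. When probes had to be well above background on all 8 arrays, 101 circRNAs of this list were tested and 64 called higher. Mcm6, a subunit of the replicative helicase, had 4 circRNAs among those with the smallest adjusted p-values of the list. The Mcm6 circRNA of 4728 bases went from -3.36, -3.39, -3.11 and -3.78 to -1.05, -1.16, -0.85 and -1.08 and rose by 2.38 ± 0.14 (adjusted p = 8.2e-05). Those of 1100, 5659 and 5201 bases rose by 2.28 ± 0.11, 2.26 ± 0.13 and 1.91 ± 0.09. After normexp the increases were 1.11, 1.02, 0.72 and 1.24 in that order. In contrast, 17 of 17 circRNAs of Ckap5, a microtubule polymerase, were not called, with a median of 0.00176.

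Circles of matrix, vessel and fibroblast hosts rose in 138 of 199 cases and fell in 2, with a median of 0.98, or 0.42 after normexp. Fn1, which encodes fibronectin, carried 45 of the 199, and 45 of 45 were called higher, so that 93 of the remaining 154 were. The Fn1 circRNAs spanned 1009 to 9699 bases with 33 different starts and 35 different ends, and their differences ran from 0.45 to 2.20 around a median of 1.96. Their median level was 0.14, -0.86, 0.11 and -0.93 in the controls and 1.15, 1.17, 1.53 and 1.73 after contusion. Flna, an actin cross-linker, had circRNAs of 1759 and 1601 bases that rose by 1.65 ± 0.11 and 1.75 ± 0.13. The Itgav circRNA of 7310 bases, from the integrin subunit alpha V, rose by 1.15 ± 0.08, or by 0.66 after normexp. By contrast 7 circRNAs of the fibrillar collagen gene Col3a1 had a median of 0.87 and 0 were called. The summed level of 6 fibroblast and meninges markers ranged from 18.4 to 30.8 among the controls and from 29.2 to 31.7 after contusion, and that of 5 Schwann cell markers, of which 0 were called, from 6.09 to 22.6 and from 15.2 to 18.6. Their part in these results was not tested.

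Phagocyte and microglia hosts had 32 of 43 circRNAs called higher and 0 lower, with a median of 1.05, or 0.52 after normexp. Plin2 encodes a lipid droplet protein, and its circRNA of 7397 bases went from 1.91, 1.77, 1.75 and 1.24 to 4.31, 4.03, 3.92 and 4.41, a rise of 2.50 ± 0.17 (adjusted p = 9.53e-05). The circRNA of 4516 bases from Ctsb, the lysosomal protease cathepsin B, rose by 1.46 ± 0.12, and that of 7700 bases from Ikzf1, a transcription factor of blood cells, by 1.50 ± 0.13 (0.39 after normexp). The engulfment receptor Mertk is on this list and on the astrocyte list, and 11 of 11 of its circRNAs were called higher. Beside this, 8 of 8 mRNA markers of infiltrating phagocytes were called higher, with a summed level of 0.18 to 19.7 in the controls and 39.5 to 42.4 after contusion. The same held for 5 of 6 microglia markers, at 24.6 to 29.7 and 33.2 to 34.6, and for 5 of 6 endothelium markers, at 12.1 to 15.3 and 18.2 to 19.7. The part of cell content was not tested.

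The astrocyte list gave 36 of 54 circRNAs higher and 4 lower, but 32 of the 36 came from Cd44, Mertk and Vim, genes that other cell types also express. Of the 22 circRNAs from the other hosts of the list, 4 were called higher. The 12 Cd44 circRNAs, each called higher, are also counted in the matrix, vessel and fibroblast list. Vim encodes the intermediate filament vimentin, and 9 of 9 of its circRNAs rose, among them the one of 4360 bases by 1.51 ± 0.11. The Cd44 circRNA of 8681 bases, from a hyaluronan receptor, rose by 1.82 ± 0.13, and the Mertk circRNA of 9126 bases by 1.05 ± 0.08. These were 1.04 and 0.62 after normexp. Gfap, the filament protein of astrocytes, had circRNAs of 4151 and 1504 bases that rose by 1.09 ± 0.17 and 1.27 ± 0.16. The circRNA of 2148 bases from Sparcl1, a synapse-promoting matrix protein of astrocytes, went from 6.84, 6.96, 6.89 and 7.04 down to 5.94, 6.08, 5.94 and 5.85 and fell by 0.98 (SE 0.07). Of 6 mRNA markers of astrocytes, 3 were called higher and 2 lower.

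**Figure D4:**
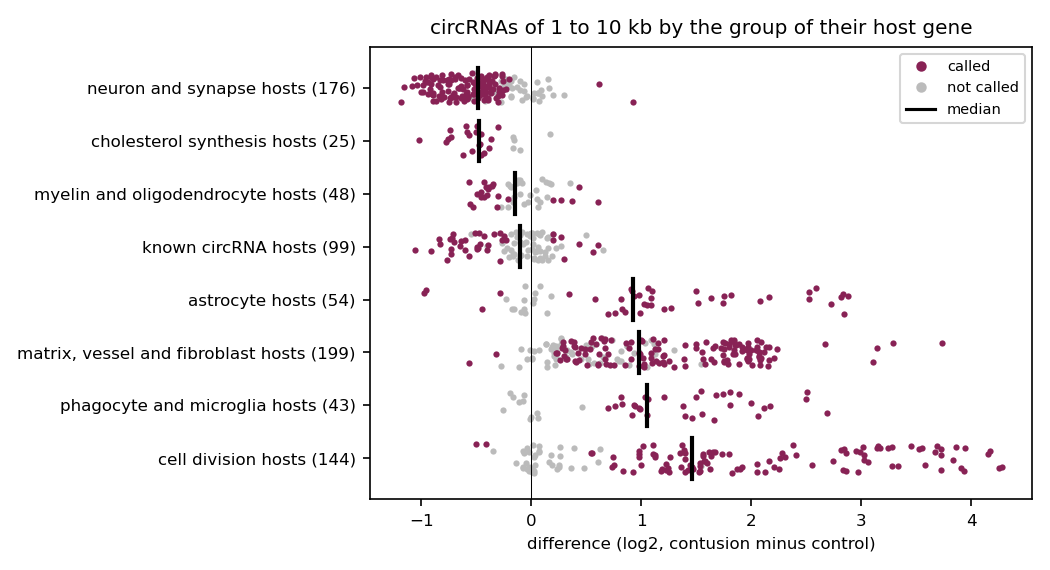
Each point is a circRNA of 1 to 10 kb, placed by its log2 difference (contusion minus control), in rows by the list its host gene belongs to, with the number tested in brackets; purple points were called, black bars are medians. The medians run from -0.49 for neuron and synapse hosts to 1.46 for cell division hosts.

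CircRNAs of the same host mostly moved alike. Placed by position inside exactly 1 protein-coding gene of GRCm38, 14304 of the 14639 circRNAs had a host, and 5374 genes were hosts. In 1159 hosts with at least 4 tested circRNAs of 1 to 10 kb, the median SD of the differences within a host was 0.118, against an SD of 0.509 over all 13883. In 85 of the 1159 hosts every circRNA was called higher, in 77 every circRNA was called lower, and in 345 none was called. High medians among the 85 were those of Top2a (3.94, 7 circRNAs), Knl1 (3.52, 6), the matrix protein thrombospondin-1 gene Thbs1 (3.11, 7) and Tpx2 (3.06, 5). Low medians among the 77 were those of the anoctamin family member Ano3 (-0.97, 4 circRNAs), the kinase subunit Camk2b (-0.90, 4), the SNAP protein Napb (-0.79, 6) and the sorting receptor Sorcs3 (-0.79, 4). These medians were not recomputed after normexp. CircRNAs of 1 acceptor end can share most of their probe, as the Knl1 pair does, so they are not separate measurements. The different acceptor ends numbered 7 for Top2a, 4 for Knl1, 7 for Thbs1, 5 for Tpx2, 3 for Ano3, 4 for Camk2b, 3 for Napb and 4 for Sorcs3. The part of shared probe sequence in the SD within hosts was not tested.

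Hosts with circRNAs called in both directions were few, at 48 of the 1760 hosts with at least 2 tested and any called. Cit encodes citron kinase, which works in the last step of cell division, and a neuronal form of citron that lacks the kinase domain. The Cit circRNA of 3861 bases was at -5.51, -6.56, -6.97 and -7.10 in the controls, where it was well above background on no array, and at -3.71, -4.02, -3.80 and -3.31 after contusion. That gave a bound of at least 3.39-fold higher. The adjusted p of 0.000457 belongs to the fitted difference of 2.83, which used those control values below background. The place of Cit among the 48 hosts has that limit. The Cit circRNAs of 2296 and 5944 bases fell by 0.41 (SE 0.11, adjusted p = 0.0166) and 0.51 (SE 0.07, adjusted p = 0.000988). Another host of this kind was Espl1, the gene of separase, the protease that lets sister chromatids part. Its circRNA of 1160 bases went from 0.41, 0.69, 0.44 and 0.54 to -0.20, -0.09, -0.61 and -0.33 and fell by 0.83 (SE 0.12, adjusted p = 0.00109), while another Espl1 circRNA rose by 2.34.

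The difference of a circRNA was set against that of its host mRNA, taken as the host's mRNA probe of highest mean level, for 13446 circRNAs with a tested host mRNA from 5115 hosts. Both differences were called for 4356 of them, with the same sign for 4244 and opposite signs for 112, of which 65 had the circRNA higher and the mRNA lower. The circRNA alone was called for 1100, the mRNA alone for 2909 and neither for 5081. Across these circRNAs, which share hosts and arrays, the Pearson correlation was 0.829 and the slope of circRNA on mRNA difference was 0.72. With at most 10 donor bases in the probe the correlation was 0.853 and the slope 0.742 (3039 circRNAs), and with 20 to 40 donor bases they were 0.802 and 0.689 (1646 circRNAs). For 123 circRNAs on the strand opposite to their host the correlation was 0.623.

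Tested as a paired contrast within each array, circRNA minus host mRNA, 1575 of 13446 circRNAs of 1 to 10 kb were called (11.7%), 870 with the circRNA above its host (6.47%) and 705 below it (5.24%). Over the circRNAs of other spans the shares were 13.2%, 7.71% and 5.47%. The count of 870 rested on single arrays and settings: it was 1469 without control replicate 1, 498 without control replicate 2, 467 without control replicate 4, 541, 507 and 559 without contusion replicates 2, 4 and 3, 526 with the slide as a block, and 1925 after normexp. That correction gave 1585 in place of 705 below the host.

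Of the 5 largest fitted gaps above the host, 4 were of circRNAs whose controls were partly or wholly not well above background, so the order of these gaps is not a measured one. The Cit circRNA of 3861 bases, well above background on no control array and at least 3.39-fold higher, stood beside an mRNA that was lower by -0.77 at the probe used and -0.55 at the other probe. For Bub1 and Runx1 the host's own mRNA probes disagreed. The Bub1 circRNAs of 2643 and 5822 bases, from a kinase of the spindle checkpoint, rose by 3.28 ± 0.57 and 2.31 ± 0.35, with 1 and 2 of 4 control arrays well above background, while the host's mRNA probes ranged from 0.07 to 4.27. The Runx1 circRNA of 6761 bases, from a transcription factor of blood cells, rose by 2.12 ± 0.41 with mRNA probes from 0.17 to 2.57. With the mean of all host probes the gaps of the Bub1 circRNA of 5822 bases (0.64, adjusted p = 0.0629) and of the Runx1 circRNA (0.48, adjusted p = 0.179) were not called. The Diaph3 circRNA of 7391 bases, from a formin that builds actin filaments, was well above background on no control array and at least 6.88-fold higher, and the host's mRNA probes were higher by 1.44 to 3.23. After normexp its gap turned to -0.68 and its increase was 0.61. The increases of the other circRNAs were then 0.37 (Cit), 0.47 and 0.42 (Bub1, 2643 and 5822 bases) and 0.72 (Runx1). Their gaps were 1.11, 0.38, 0.34 and 0.54 in that order.

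The largest gaps below the host were in genes whose mRNA rose. The Espl1 circRNA of 1160 bases had a gap of -3.35 ± 0.28, and both of the gene's mRNA probes were higher, by 2.40 and 2.53. The Troap circRNA of 2973 bases, from a spindle-associated protein, differed by 0.20 ± 0.09 (adjusted p = 0.123) with mRNA probes at 0.40 and 3.48. The Siglec1 circRNA of 1537 bases, from a macrophage surface receptor, was at -4.00, -4.45, -4.11 and -4.26 in the controls and at -4.19, -3.97, -4.03 and -3.89 after contusion. These groups overlap, at a difference of 0.18 ± 0.11 (adjusted p = 0.246), beside mRNA probes that ranged from 0.98 to 3.30. The 8085-base circRNA of Aspm, a spindle pole protein, differed by 0.18 ± 0.21 (adjusted p = 0.525), and each of its 4 mRNA probes was higher by 2.91 to 4.16. After normexp the gap of the Siglec1 circRNA went from -2.74 to -1.74 and that of the Aspm circRNA from -2.73 to -1.10, each still called. The Exo1 circRNA of 3504 bases, from a DNA repair exonuclease, rose by 0.74 ± 0.23 (adjusted p = 0.035), a call that did not hold when the slide was a block (0.53, adjusted p = 0.131), on leaving out control replicate 2, 3 or 4 or contusion replicate 1, 2 or 4 (0.60 to 0.77), with no filter on dim probes (adjusted p = 0.0604), or after normexp correction (0.20).

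**Figure D5:**
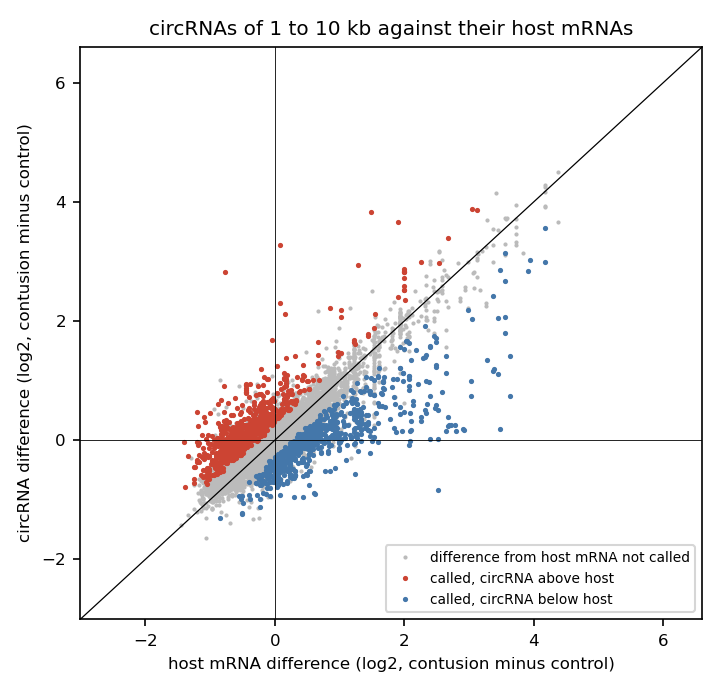
Each point is 1 of 13446 circRNAs of 1 to 10 kb, with the log2 difference (contusion minus control) of its host mRNA on the horizontal and its own on the vertical axis; the diagonal marks equal differences. Most points follow the diagonal, 870 called points lie above it and 705 below, and the lower right holds circRNAs that differed little while the host mRNA rose.

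Genes known to act in the formation, editing, export or decay of circRNAs were measured as mRNAs. Of 42 tested, 10 rose and 10 fell, with a median of 0.02, while 25.8% of the 18146 mRNAs tested were called higher and 25.3% lower, 51.2% in all. Ddx39a, a helicase of nuclear export, rose by 0.98 ± 0.08 (adjusted p = 0.000127), from levels of 1.99, 1.92, 1.85 and 1.92 to 2.98, 2.77, 2.84 and 3.01. Eif2ak2, the kinase PKR that binds circRNAs, rose by 0.69 ± 0.11. Dis3, a nuclease of the exosome, rose by 0.37 ± 0.07. The RNA editing enzymes Adar and Adarb1, which act on the paired repeats that flank circularizing exons, fell by 0.54 (SE 0.08) and 0.74 (SE 0.11). The splicing regulators Nova1 and Rbfox2 fell by 0.67 (SE 0.09) and 0.57 (SE 0.09).

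At the limits of the span, the shortest circRNA, of 1000 bases at chr2:29247828-29248828, differed by 0.04 ± 0.11, and the longest, from the transcription factor gene Mef2c, by 0.86 ± 0.12. Just outside, the Rc3h1 circRNA of 999 bases differed by 0.11 ± 0.07 and the Cep128 circRNA of 10001 bases by 0.76 ± 0.20. How these differences at the limits change after normexp was not examined.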

How the data were processed

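Spot values are intensities that the authors deposited as scanner output. Per the file headers, Agilent Feature Extraction had subtracted the background and removed spatial trends, with no normalization between arrays; the mean spot and local background intensity are deposited too. The submitters' processing notes name version 10.7 and limma, while the headers read 12.0.3.1. The authors' series table holds deposited log2 values, which followed each array's own log2 intensity (Spearman 1) and served as an alternative. The deposited flags, which mark spots as above background, saturated or outlying, are scores of 0 or 1.

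Levels are log2(gProcessedSignal) minus each array's 75th percentile. Control spots and 6 to 53 outlier spots an array were left out. Features well above background on at least 4 of 8 arrays were fitted by group in limma 3.58.1 under R 4.3.3 (lmFit, eBayes). Tests were two-sided and p-values adjusted by Benjamini-Hochberg over 89088 features. On simulated data with 100 of 89088 features changed by 0.5 and 100 by 1, the fit recovered 40% and 86% of them. The adjustment depends on how many features change, and 34362 were called in the real data. These shares therefore check the fit and do not give its sensitivity here. Of the circRNAs, 12 lacked a value on some array. Hosts came from the RefSeq table of GRCm38.p6 and strands from its promoter table; 98.6% of circRNAs with a known host strand lay on it. The headers give mm9 for the array.

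Alternatives were normexp with an offset of 50, quantile normalization, the percentile over circRNA probes, the authors' table, other filters on dim probes, other adjustments, a slide or replicate block, a trended prior, the mean of all host probes and leaving out each array.

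The members, gene lists and rules were chosen with earlier results of these data known. Named by rule were the 10 largest increases and decreases among called circRNAs whose groups do not overlap, the 5 largest gaps to the host on each side, the hosts with at least 4 circRNAs all called one way (5 a side), up to 8 known circRNAs, up to 4 circRNAs of each host list and 4 mRNAs a side by smallest adjusted p, and the circRNAs at the span limits. Fn1, Ckap5, Col3a1, Srebf2, Gfap, Grin2b, Erc1 and the further Cit and Espl1 circRNAs were named after their values were seen. Some items that the rules chose are not reported here.

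Per the labels, contusion and control share replicate numbers, but same-numbered arrays did not deviate together (correlations from -0.302 to -9.3e-05), so the numbers were not taken as pairs.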

Additional observations from a re-analysis of the deposited data

Results flagged for a closer look

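In groups of 4 arrays, a value was marked where the gap of its most distant array to the next, divided by the group's range, was above Dixon's 95% critical value of 0.829. Of 132 groups examined 4 were marked, and chance marks about 1 in 20. The control group of the Lgals3 circRNA of 4488 bases had a gap of 0.846 of its range, since control replicate 4 was at -0.73 and the others between 1.63 and 2.06. For the Top2a circRNA of 1171 bases the gap was 0.929, with control replicate 1 at -5.43 and the others between -7.95 and -7.78, where no control array was well above background. The controls of the Dab1 circRNA of 1483 bases had a gap of 0.945, with control replicate 2 at -2.85 above 3 arrays between -3.27 and -3.25. Contusion replicate 2 was at -6.33 for the ccdc198 circRNA of 3497 bases, a gap of 0.839.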

How the results depend on the processing

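Of 1352 recomputed differences of 76 named circRNAs, gaps and mRNAs, 1320 kept their direction and their side of the threshold, 29 lost the call, 1 gained it and 2 changed sign; 64 of the 76 kept both throughout. Sizes moved more: after normexp 35 of 59 named circRNA differences and 7 of 10 gaps were over 1.5 times smaller. The sign changes were the gap of the Diaph3 circRNA to its mRNA after normexp (-0.68) and the uncalled Foxo3 circRNA with the slide as a block (-0.0452). The call gained was that of the Troap circRNA under the circRNA-only percentile (0.26, adjusted p = 0.0498). Under the alternatives other than leaving out an array, including 2 chosen after seeing the data (hosts on the same strand, no identical probes), 2116 to 3407 circRNAs of 1 to 10 kb were called higher and 2170 to 3092 lower. Leaving out each array in turn gave 2221 to 2804 higher, 2296 to 2790 lower and 467 to 1469 above the host mRNA. The median difference was 0.0567 with the percentile taken over circRNA probes, and lay between -0.0227 and 0.00251 under the other settings and with each array left out. Circles above the host numbered 1925 after normexp and 526 with the slide as a block, and those below it 1585 after normexp. In the fit with a replicate block, 341 circRNAs lay above and 402 below the host mRNA, and the calls of the Hipk3 (adjusted p = 0.0579), Exo1 (adjusted p = 0.0629) and Tulp4 (adjusted p = 0.114) circRNAs were lost. The causes were not tested. Of the circRNAs of 1 to 10 kb, 756 were not tested because too few arrays were well above background.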

Other observations

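Titin (Ttn), the giant spring protein of muscle, carried 25 tested circRNAs of 1 to 10 kb, of which 2 were called higher. Their median level was -3.83, -4.88, -4.01 and -4.68 in the controls and -1.11, -2.83, -4.71 and -4.45 after contusion, so contusion replicates 1 and 2 stood above the other 6 arrays. The summed level of 6 skeletal muscle markers ran from -10.5 to 3.63 in the controls and from -5.56 to 23.3 after contusion, and 0 of the 6 were called. The part of muscle RNA in these values was not tested. Ryr2, the calcium release channel of the endoplasmic reticulum in neurons and heart, had 23 of 23 circRNAs called lower, with a median of -0.71. The median level of the Ryr2 circRNAs was -1.36, -1.44, -1.54 and -1.38 in the controls and -2.25, -2.17, -2.19 and -2.18 after contusion, with no overlap. Sptan1, which encodes the alpha spectrin of the neuronal membrane skeleton, had 20 of 26 called lower (median -0.23), and Nf1, the neurofibromin gene, 17 of 26 (median -0.27). Birc6, an inhibitor of apoptosis, had 24 circRNAs with a median of -0.03, of which 0 were called. Utrn, the gene of the dystrophin relative utrophin, had 23 tested, of which 0.0 were called higher and 1.0 lower (median 0.16). After Fn1 these hosts carried the most tested circRNAs of 1 to 10 kb and were picked by that number alone. Of the mRNA marker lists not given above, 1 of 8 neutrophil markers was called higher, 1 of 6 oligodendrocyte markers lower and 0 of 6 T and B lymphocyte markers either way.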
